A study of Mus musculus with 24 samples.

Results

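The Hox genes encode homeodomain transcription factors, and here they were taken as every gene whose mouse symbol is Hox with a cluster letter and a position number. All 39 such genes were among the 24346 genes counted in each of 12 RNA-seq libraries of 3T3-L1 cells, a mouse preadipocyte line that becomes fat-storing when given adipogenic hormones. The members were chosen by name, not by their values, though with earlier results of these data known. The libraries form 4 groups of 3 biological replicates: cells labelled as overexpressing the histone demethylase LSD1 at day 7 and at day 0, and control cells at day 7 and at day 0. Day 0 cells were confluent and not yet induced. Day 7 cells had been induced with isobutylmethylxanthine at 500 µM, rosiglitazone at 10 µM, dexamethasone at 1 µM and insulin at 10 µg/ml in 10% FBS, and kept on insulin and FBS from day 3, according to the labels. All cells were of passages 13 to 18. The labels do not say how LSD1 was expressed or how many lines or clones were used, so the label and any other way in which the 2 kinds of cell differ cannot be told apart. Beside the RNA there were 4 LSD1 and 2 Nrf1 ChIP-seq peak lists, with 1 sample each. The study asks how LSD1 acts when preadipocytes become beige fat cells.

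Mammalian Hox genes lie in 4 clusters, and the order of the genes in a cluster follows the order in which they are used along the head-to-tail axis of the embryo. Genes at the same position in different clusters are paralogues, with low positions used towards the head and high positions towards the tail. Their proteins bind DNA together with Pbx and Meis cofactors. Polycomb complexes keep Hox genes silent and trithorax (MLL) complexes keep them active, and cells in culture tend to retain the Hox pattern of the body site they came from, fat depots included.

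Library totals, with 1 transcript per gene, were 19953122 to 21695176 counts in labelled cells at day 7, 23961937 to 25453097 in labelled cells at day 0, 19985060 to 22290369 in control cells at day 7 and 25916946 to 26266765 in control cells at day 0. Kdm1a, which encodes LSD1, was the check of the label. It had 54.3, 55.4 and 54.4 CPM (counts scaled to library size, after TMM) in labelled cells at day 7, against 66.0, 67.6 and 74.5 CPM in control cells at day 7. At day 0 it had 89.4, 104.1 and 99.0 CPM in labelled cells, against 79.0, 86.3 and 84.1 CPM in control cells. Kdm1a was thus lower in labelled cells at day 7 (log2 fold change -0.34 ± 0.10 SE, edgeR adjusted p = 0.00752) and did not pass the test at day 0 (0.23 ± 0.10 SE, edgeR adjusted p = 0.0968). The label was therefore not borne out by these counts, and an added LSD1 sequence that is not in the RefSeq transcript would not be counted, so the libraries are called labelled cells throughout. Labelled day 0 replicate 1 stood apart from the other 2 libraries of its group (r = 0.955 and 0.957, against 0.993 between those 2), and results that rest on it are given with and without it. Adjusted p-values come from edgeR's quasi-likelihood test with Benjamini-Hochberg adjustment over all 13356 genes tested, and a gene is called at 0.05.

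Of the 39 Hox genes, 20 passed the filter on low counts, and all but 1 of them lay at positions 1 to 9. Positions 1 to 9 held 27 members, of which 19 passed, and positions 10 to 13 held 12, of which 1 passed. On the scale of CPM per kb of exon, positions 1 to 9 made up 97.48% of the summed Hox level over the 12 libraries. By cluster and pooled over all libraries, HoxA gave 45.67% of that level from 7 passed members of 11, HoxD 37.56% from 4 of 9, HoxB 13.76% from 6 of 10 and HoxC 3.01% from 3 of 9. In labelled cells at day 7 HoxD was above HoxA, with 31.0 to 34.1 against 20.0 to 21.0 CPM per kb, and in labelled cells at day 0 and control cells at day 0 HoxA was above HoxD. The highest members per kb were Hoxd8 with 15.8 CPM per kb, Hoxa2 with 13.2, Hoxd9 with 6.61, Hoxa7 with 6.18 and Hoxa3 with 5.93. Hoxd8 ranked above 78.7% and Hoxa2 above 76.0% of the 22981 genes with an annotated start site. The exception at the tail end was Hoxc13, a gene known from hair and nail, which averaged 1.83 CPM per kb.

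**Figure D1:**
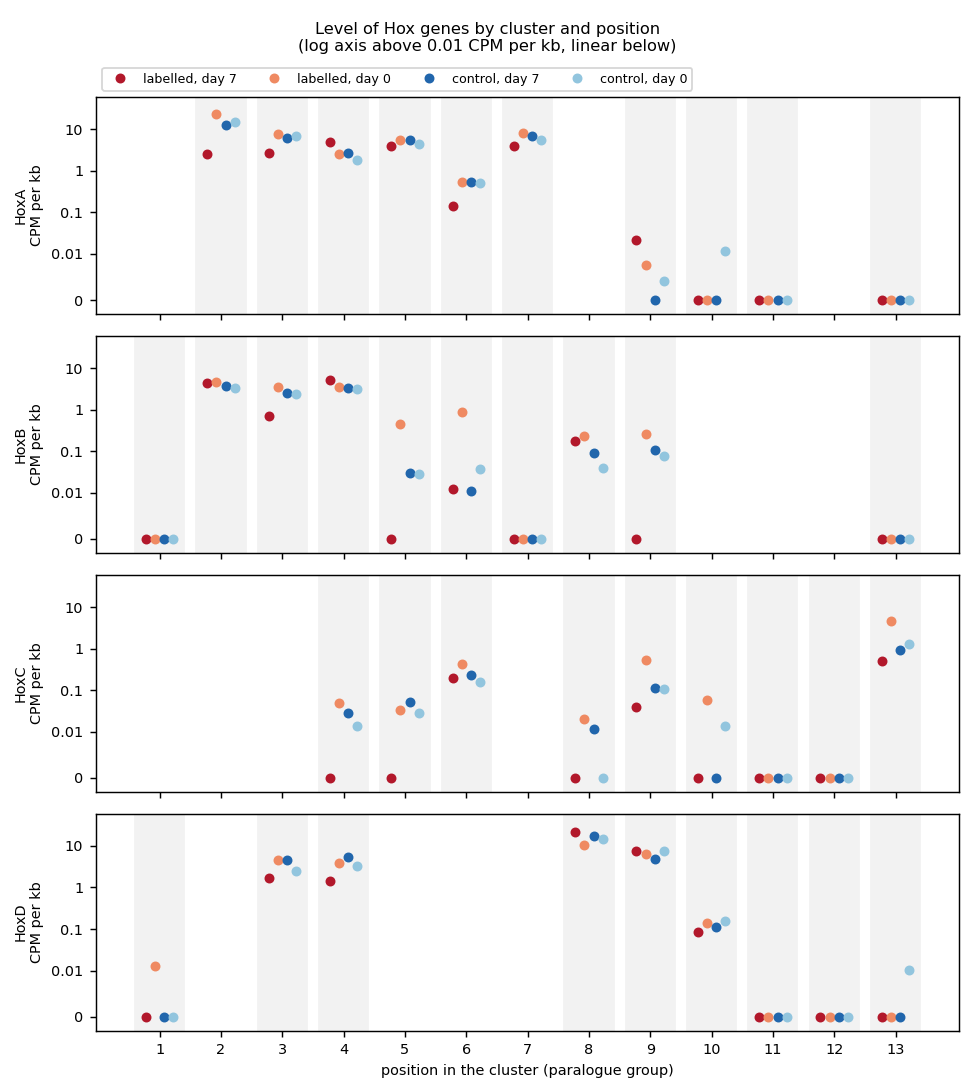
Mean level of Hox genes in CPM per kb of exon (vertical axis, logarithmic above 0.01 and linear below) against position in the cluster (horizontal axis), with 1 panel per cluster and 1 point per group (mean of 3 libraries). Points sit high at positions 2 to 5 and 7 of HoxA, at positions 2 to 4 of HoxB and at positions 3, 4, 8 and 9 of HoxD. Hoxa6 sits lower, at 0.14 to 0.55 CPM per kb. Hoxc13 is the only member of positions 10 to 13 that passed the filter.

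The 19 members below the filter were at or near the floor. 9 of them had 0 counts in all 12 libraries: Hoxa11, Hoxa13, Hoxb1, Hoxb7, Hoxb13, Hoxc11, Hoxc12, Hoxd11 and Hoxd12. The summed count over 12 libraries was 96 for Hoxb8, 66 for Hoxd10, 23 for Hoxc5, 14 for Hoxc4, 10 for Hoxc10, 7 for Hoxa9, 6 for Hoxc8 and 2 each for Hoxa10, Hoxd1 and Hoxd13. Hoxc10, reported to repress browning genes in mouse subcutaneous fat, was thus barely measurable. A further 5 members, Hoxb5, Hoxb6, Hoxb9, Hoxc6 and Hoxc9, reached a mean of 10 counts in labelled cells at day 0 and in no other group. They passed the filter through the group in which they were high, so their calls are described apart from the other 15 and support no count. The 15 others reached a mean of 10 counts in all 4 groups, except Hoxa6, which reached it in 3.

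The clusters lie on chromosome 6 (HoxA), chromosome 11 (HoxB, chr11:96194316-96368253), chromosome 15 (HoxC, chr15:102921131-103036852) and chromosome 2 (HoxD, chr2:74668225-74765142) of mm10. The deposited lists held LSD1 peaks in each cluster. Within 1 kb of the annotated start site, LSD1 peaks lay at 11 of the 39 Hox genes in labelled cells at day 7, at 8 in labelled cells at day 0, at 5 in control cells at day 7 and at 3 in control cells at day 0. Over all genes the shares with such a peak were 47.4%, 41.8%, 34.5% and 13.2% in the same order. All Hox promoters with a peak belonged to the 20 members that passed the count filter, and none of the 19 below it had one. Among all genes that passed the filter the shares were 79.9%, 70.3%, 58.9% and 22.5%. So 11 of 20 passed Hox genes carried a peak in labelled cells at day 7, beside 79.9% of passed genes in general. With 1 sample per list, unequal list lengths and unknown depth, no test between conditions was made.

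Hoxd8 and Hoxd9 had a promoter peak in all 4 LSD1 lists. Hoxa3, Hoxb2 and Hoxd3 had one in 3 lists, Hoxa2 and Hoxb4 in both lists of labelled cells, and Hoxa4, Hoxa5 and Hoxa7 in labelled cells at day 7 alone. Hoxa6, Hoxb3, Hoxc13 and Hoxd4, though expressed, had none in any list, nor did Hoxb5, Hoxb6, Hoxb9, Hoxc6 and Hoxc9. The peak scores below are the authors' own and are read only within a list. In labelled cells at day 7 the peaks over the starts of Hoxd8, Hoxa3 and Hoxd3 scored 1745.73, 1480.49 and 1205.68 in a list of 27221, within its top 3.74%, 5.26% and 7.73%. In labelled cells at day 0 a single peak of 11162 bases held all of Hoxa2 and reached the end of Hoxa3, rank 68 of 13997 by width. HoxA was covered by peaks over 17.3% of its span in labelled cells at day 7, 19.8% in labelled cells at day 0, 4.76% in control cells at day 7 and 0.0% in control cells at day 0. HoxD was covered over 9.58%, 7.91%, 5.11% and 2.50% of its span in the same order. HoxC held 2 peaks in labelled cells at day 7, neither within 1 kb of a member's start, and no peak in the other 3 LSD1 lists. Nrf1, a transcription factor profiled in the same series, had no peak within any of the 4 clusters in either of its lists, while 7.43% (day 7) and 6.88% (day 0) of all promoters had one. The day 7 Nrf1 sample is titled as LSD1 cells and labelled as control, so its cells are given by day only.

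**Figure D2:**
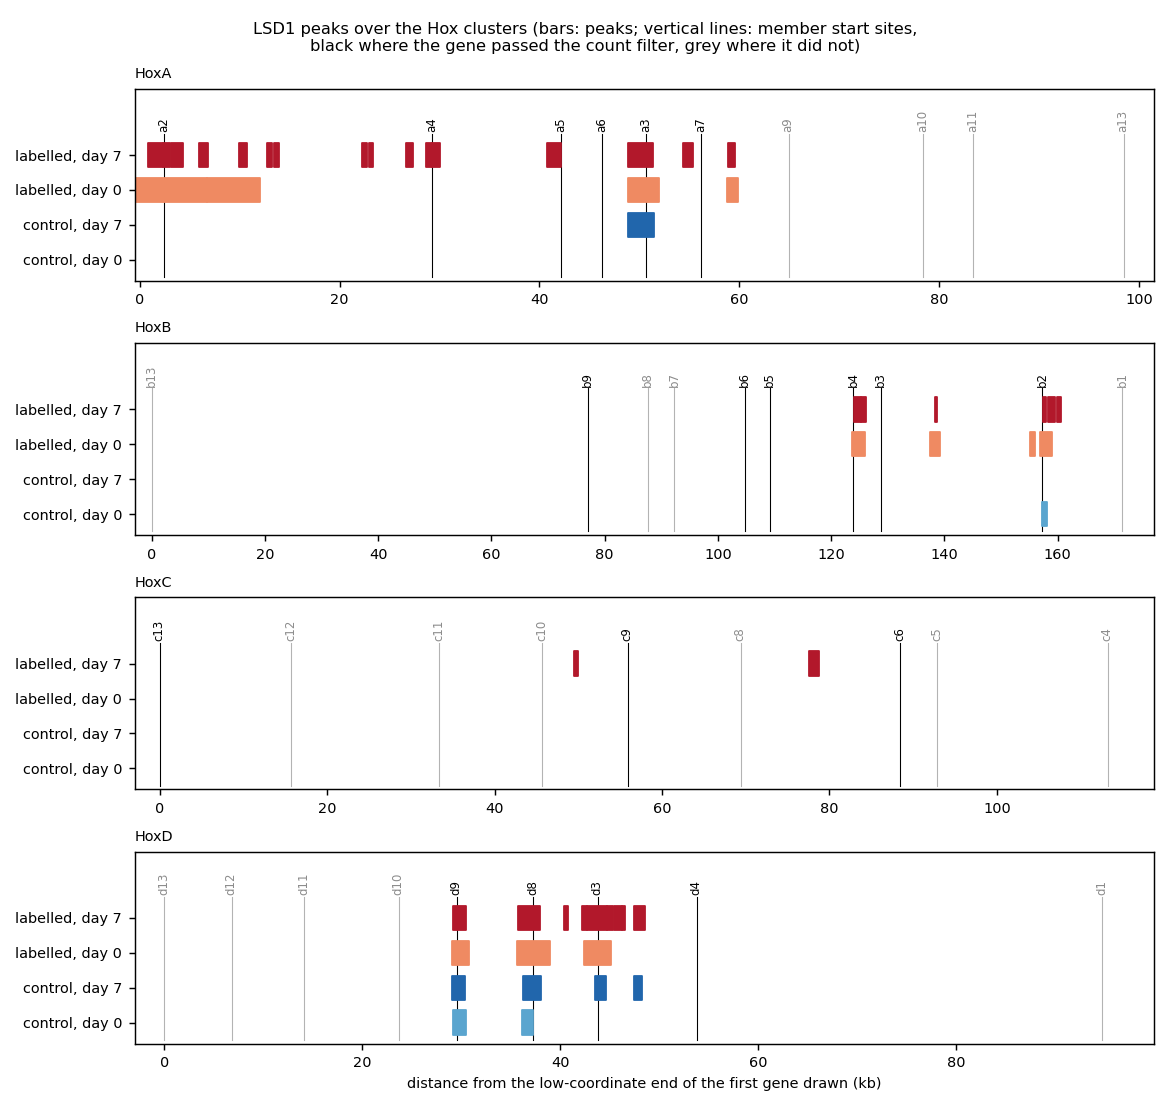
LSD1 peaks (bars) along the 4 Hox clusters in the 4 lists (rows), with distance in kb from the low-coordinate end of each panel's first gene on the horizontal axis and vertical lines at the members' start sites, black where the gene passed the count filter and grey where it did not. HoxA is drawn from Hoxa2 on. Bars gather over Hoxa2 and Hoxa3 and over Hoxd9 to Hoxd3, and stretches around grey start sites hold few or none.

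The promoters below are shown because an LSD1 peak in 2 or more lists holds the whole window and because these 5 genes carry the expression results that follow. Each is the 250 bases before the RefSeq start (GRCm38.p6), written 5′ to 3′ along the gene. The windows are chr6:52164832-52165081 on the minus strand for Hoxa2, chr6:52213068-52213317 on the minus strand for Hoxa3, chr2:74711743-74711992 on the plus strand for Hoxd3, chr2:74704365-74704614 on the plus strand for Hoxd8 and chr2:74697513-74697762 on the plus strand for Hoxd9. For Hoxd8 the counted transcript starts further downstream, at 74705489. Capitals mark matches on either strand to TGATNNAT (the Hox-Pbx motif), TGACAG (Meis), CCAAT (NF-Y) and GGGCGG (Sp).
Hoxa2: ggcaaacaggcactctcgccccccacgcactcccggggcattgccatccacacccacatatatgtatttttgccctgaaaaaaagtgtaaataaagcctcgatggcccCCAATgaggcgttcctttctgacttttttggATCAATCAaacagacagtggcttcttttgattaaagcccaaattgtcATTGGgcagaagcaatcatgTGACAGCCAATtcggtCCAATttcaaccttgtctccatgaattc
Hoxa3: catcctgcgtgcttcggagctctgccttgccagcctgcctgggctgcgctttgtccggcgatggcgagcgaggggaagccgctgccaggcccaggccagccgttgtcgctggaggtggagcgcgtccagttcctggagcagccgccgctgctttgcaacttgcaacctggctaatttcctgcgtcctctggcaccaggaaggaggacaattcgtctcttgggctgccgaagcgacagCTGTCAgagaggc
Hoxd3: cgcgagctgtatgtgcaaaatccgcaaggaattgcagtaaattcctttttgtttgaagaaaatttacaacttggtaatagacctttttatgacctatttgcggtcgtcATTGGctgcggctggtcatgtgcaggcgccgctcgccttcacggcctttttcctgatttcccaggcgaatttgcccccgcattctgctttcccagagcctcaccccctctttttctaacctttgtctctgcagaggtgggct
Hoxd8: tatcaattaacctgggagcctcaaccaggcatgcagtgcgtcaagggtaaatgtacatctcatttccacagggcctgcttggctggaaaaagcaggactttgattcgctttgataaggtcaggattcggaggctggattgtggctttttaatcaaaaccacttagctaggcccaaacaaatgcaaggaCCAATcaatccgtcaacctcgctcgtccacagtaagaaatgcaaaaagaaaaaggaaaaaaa
Hoxd9: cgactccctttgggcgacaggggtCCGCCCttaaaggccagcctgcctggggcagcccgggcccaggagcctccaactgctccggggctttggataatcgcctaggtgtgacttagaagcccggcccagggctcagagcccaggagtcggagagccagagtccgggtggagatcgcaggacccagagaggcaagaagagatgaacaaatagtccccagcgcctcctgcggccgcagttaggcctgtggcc
Hoxa2 is the one of these 5 with the Hox-Pbx motif, read on the reverse strand at 111 bases before the start, and it also holds a Meis motif and 4 CCAAT boxes, none of which overlap. Of 32851 promoter windows of this length in the table, 7.68% hold the Hox-Pbx motif, 15.9% the Meis motif, 33.8% CCAAT and 32.7% GGGCGG. The table matched 22 of the 39 members, of which 4 hold the Hox-Pbx motif (Hoxa2, Hoxb1, Hoxb8 and Hoxd11), 2 the Meis motif (Hoxa2 and Hoxa3), 14 CCAAT and 10 GGGCGG. The Nrf1 motif is in none of the 22 and in 3.74% of all windows. A match describes letters in a window and shows no bound site.

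Differentiation changed few Hox genes in control cells. Of all genes 48.3% were called between day 7 and day 0, 23.7% higher and 24.6% lower. Of the 15 Hox genes measured in at least 3 groups, 2 were higher, 1 was lower and 12 did not pass the test. Hoxd3 and Hoxa4, both known from patterning of the neck vertebrae, were higher by 0.82 ± 0.26 and 0.51 ± 0.18 on the log2 scale (SE, edgeR adjusted p = 0.0210 and 0.0363). Hoxd9, known from the lumbar vertebrae and upper forelimb, was lower by -0.63 ± 0.16 (edgeR adjusted p = 0.00690). The call for Hoxd9 held when any 1 library was left out, while Hoxa4 was not called in any of the 6 such fits. Hoxd3 was not called without control day 0 replicate 2 or 3 or control day 7 replicate 2 or 3 (edgeR adjusted p 0.0562 to 0.0887). For its cluster neighbour Hoxd4 the estimate was 0.70 ± 0.28 and it was not called (edgeR adjusted p = 0.0526), but it was called without control day 0 replicate 1 (1.12, edgeR adjusted p = 0.00385) and, with edgeR adjusted p of 0.0321 to 0.0479, with the replicate block, with only the 2 groups compared and with no filter. DESeq2 also called it (adjusted p = 0.0372).

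Between day 7 and day 0 in labelled cells, where 69.8% of all genes were called, the 15 Hox genes were called about as often but more of them fell than rose. They held 8 that were lower and 3 that were higher, beside 37.2% and 32.6% of all genes, and 4 were not called. Their median log2 fold change was -1.05, beside -0.07 over all genes tested. The falls included Hoxa2, Hoxa3, Hoxa6 and Hoxa7 in HoxA, Hoxb3 in HoxB, Hoxc13 in HoxC and Hoxd3 and Hoxd4 in HoxD. The rises were Hoxa4, Hoxb4 and Hoxd8, so HoxA and HoxD each held members that moved in opposite directions. For HoxB this rests on Hoxb4 alone, whose call was lost in several alternatives, as given below. In bulk RNA, fewer cells that express a gene and less RNA per cell cannot be told apart.

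Hoxa2, which gives the second pharyngeal arch its identity, fell to 4.30, 4.80 and 4.81 CPM in labelled cells at day 7, against 52.5, 34.7 and 35.3 CPM in labelled cells at day 0. In control cells it had 24.2, 23.3 and 19.1 CPM at day 7, against 26.6, 27.1 and 25.2 CPM at day 0. The labelled day 7 libraries lay below all 9 others, and the change over time in labelled cells was -3.13 ± 0.18 on the log2 scale (edgeR adjusted p = 7.06e-09). Without labelled day 0 replicate 1, the highest of the 12, it was called in the same direction (-2.91). Hoxa3, needed for thymus and parathyroid, had 7.22, 6.71 and 6.57 CPM in labelled cells at day 7, against 22.7, 19.5 and 17.0 CPM at day 0. Its control libraries had 16.9, 17.0 and 14.6 CPM at day 7, against 18.9, 15.1 and 18.7 CPM at day 0. Again labelled day 7 was below all others (-1.53 ± 0.15, edgeR adjusted p = 1.40e-06). Both promoters carried LSD1 peaks in labelled cells at both days.

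Hoxa7, an axial patterning gene, had 6.89, 8.67 and 7.35 CPM in labelled cells at day 7, against 19.8, 13.4 and 14.3 CPM at day 0. It had 14.5, 14.8 and 11.7 CPM in control cells at day 7, against 10.6, 10.7 and 11.9 CPM at day 0. Labelled day 7 libraries were the lowest 3 of the 12 (-1.05 ± 0.18 against labelled day 0, edgeR adjusted p = 0.000158). Its neighbour Hoxa6, with 0.331, 0.258 and 0.362 CPM in labelled cells at day 7, was also below its other 9 libraries, which had 1.06 to 1.498 CPM (-1.93 ± 0.34, edgeR adjusted p = 0.000195). Hoxa5, which patterns the neck and upper chest and is needed for the lung, had 7.06, 8.21 and 6.93 CPM in labelled cells at day 7, against 14.9, 9.77 and 7.41 CPM at day 0. Its control libraries had 11.7, 9.96 and 9.07 CPM at day 7, against 9.46, 6.56 and 8.57 CPM at day 0. The labelled groups overlapped for Hoxa5 and the change was not called (-0.53 ± 0.24, edgeR adjusted p = 0.0647), except without labelled day 0 replicate 3 (-0.73, edgeR adjusted p = 0.0120) and with no filter on low counts (edgeR adjusted p = 0.0456).

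Between these genes on the chromosome, Hoxa4 went the other way. It had 7.61, 7.18 and 8.07 CPM in labelled cells at day 7, against 4.54, 3.40 and 3.58 CPM at day 0, and in control cells 4.32, 3.84 and 4.04 CPM at day 7, against 3.10, 2.98 and 2.50 CPM at day 0. Labelled day 7 was above all other libraries (0.99 ± 0.18, edgeR adjusted p = 0.000266). The counted Hoxa3 transcript spans the genes Hoxa4 to Hoxa6, with no shared exon on the same strand.

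In HoxB, Hoxb3, a hindbrain patterning gene, had 2.65, 2.17 and 2.48 CPM in labelled cells at day 7, against 11.2, 12.5 and 12.2 CPM at day 0. In control cells it had 8.82, 8.94 and 8.24 CPM at day 7, against 8.36, 7.77 and 8.37 CPM at day 0. The 3 labelled day 7 libraries were far below the rest (-2.30 ± 0.15, edgeR adjusted p = 2.40e-08). Next to it, Hoxb4, used to expand blood stem cells in culture, had 12.1, 13.3 and 14.7 CPM in labelled cells at day 7, against 13.3, 6.69 and 7.85 CPM at day 0. It had 8.37, 9.87 and 7.78 CPM in control cells at day 7, against 7.77, 8.37 and 8.29 CPM at day 0. Its labelled groups overlapped through labelled day 0 replicate 1 and the rise of 0.53 ± 0.22 (edgeR adjusted p = 0.0482) was called without that library (0.88, edgeR adjusted p = 4.97e-05) and in none of the other 5 fits that left a library out. The call was also lost with no filter, summed transcripts, the replicate block and only the 2 groups compared (edgeR adjusted p 0.0519 to 0.134). Hoxb2, needed for facial motor neurons, averaged 7.11 ± 1.21 and 7.65 ± 0.704 CPM in labelled cells at day 7 and day 0 and 6.00 ± 1.63 and 5.45 ± 0.0536 CPM in control cells (SD, n = 3 each) and was called in no comparison, except at day 7 between labelled and control cells without control replicate 2 (0.49, edgeR adjusted p = 0.0497).

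In HoxC, Hoxc13 had 1.10, 1.70 and 0.880 CPM in labelled cells at day 7, against 13.4, 10.8 and 9.42 CPM at day 0. Control cells had 2.23, 3.06 and 1.54 CPM at day 7, against 3.22, 2.74 and 3.21 CPM at day 0. The 3 labelled day 0 libraries were above all 9 others, and the later fall was -3.18 ± 0.30 (edgeR adjusted p = 6.71e-07).

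In HoxD, Hoxd3 had 5.68, 4.65 and 3.98 CPM in labelled cells at day 7, against 9.58, 16.0 and 15.4 CPM at day 0. Its control libraries had 11.8, 13.8 and 13.3 CPM at day 7, against 10.6, 5.64 and 5.83 CPM at day 0. It fell in labelled cells (-1.52 ± 0.27, edgeR adjusted p = 0.000248) and rose in control cells, as given above. Hoxd4, known from the neck vertebrae, had 4.58, 3.87 and 2.38 CPM in labelled cells at day 7, against 10.7, 9.09 and 10.7 CPM at day 0. Control cells had 13.8, 14.4 and 13.5 CPM at day 7, against 12.8, 5.44 and 7.34 CPM at day 0, so labelled day 7 was the lowest group without overlap (-1.49 ± 0.30, edgeR adjusted p = 0.000578). Control day 0 replicate 1 was the highest of its group for both Hoxd3 and Hoxd4.

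Hoxd8, which acts with its paralogues on the trunk skeleton, had 48.2, 42.0 and 39.7 CPM in labelled cells at day 7, against 20.9, 19.7 and 23.2 CPM at day 0. In control cells it had 34.1, 35.1 and 37.4 CPM at day 7, against 31.3, 28.8 and 27.8 CPM at day 0. None of the 4 groups overlapped, and the rise in labelled cells was 1.02 ± 0.12 (edgeR adjusted p = 4.05e-06). Its neighbour Hoxd9 had 14.01, 15.4 and 19.5 CPM in labelled cells at day 7, against 15.8, 12.4 and 11.8 CPM at day 0, and in control cells 9.66, 10.2 and 10.7 CPM at day 7, against 14.2, 17.0 and 16.1 CPM at day 0. The labelled groups overlapped and were not called apart (0.29 ± 0.16, edgeR adjusted p = 0.131), except without labelled day 0 replicate 1 (0.43, edgeR adjusted p = 0.0145).

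**Figure D3:**
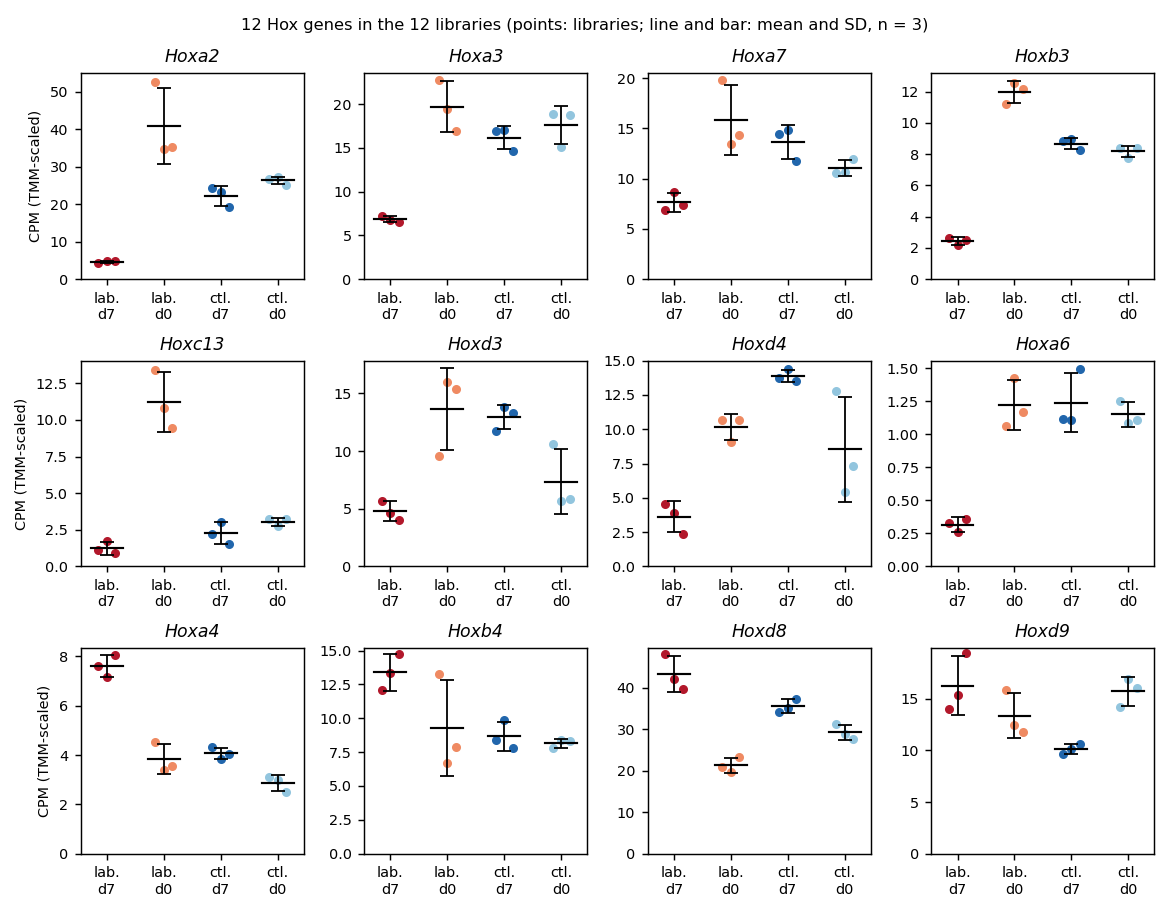
Level in CPM (vertical axes, from 0) of 12 Hox genes in the 12 libraries, with groups from left to right labelled day 7, labelled day 0, control day 7 and control day 0. Points are libraries, and the line and bar give the mean and SD of 3. By mean, labelled day 7 is the lowest group for Hoxa2, Hoxa3, Hoxa7, Hoxb3, Hoxc13, Hoxd3, Hoxd4 and Hoxa6 and the highest for Hoxa4, Hoxb4, Hoxd8 and Hoxd9. For Hoxc13, Hoxd3, Hoxb4 and Hoxd9 its libraries overlap those of another group.

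The 5 members that were high in labelled cells at day 0 alone had few counts. Hoxb5 and Hoxb9, genes of the trunk axis, summed to 0 and 0 counts in labelled cells at day 7, against 67 and 57 at day 0, which, counting each empty group as 3 counts, is at least 15.9-fold and at least 13.5-fold lower. Control cells had 4 counts of Hoxb5 at each day, and of Hoxb9 20 at day 7 and 16 at day 0. By the same rule Hoxb9 was at least 5.57-fold lower in labelled than in control cells at day 7. These folds take the count of the other group as exact. Hoxb6 had 1 count in labelled cells at day 7 and 93 at day 0, a ratio of 66.2 (exact 95% counting interval 11.6 to 2644), but labelled day 0 replicate 1 had 2.62 CPM while the other 2 had 0.644 and 0.401 CPM. Hoxc9, often used to mark subcutaneous white and beige fat against brown fat, had 0, 0.207 and 0 CPM in labelled cells at day 7, against 1.15, 0.823 and 0.730 CPM at day 0. In control cells it had 0, 0.278 and 0.291 CPM at day 7, against 0.0785, 0.161 and 0.317 CPM at day 0. Hoxc6 had 0.165 to 0.569 CPM in labelled cells at day 7, against 0.394 to 1.27 CPM at day 0, and was called in no comparison, except over time in labelled cells without labelled day 7 replicate 3 (edgeR adjusted p = 0.0483).

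At day 7, labelled and control cells differed at 63.6% of all genes, 33.4% lower and 30.2% higher in labelled cells. Of the 15 Hox genes, 8 were lower and 4 higher, 2 of them (Hoxb4 and Hoxd8) in few of the fits that left a library out, with a median log2 fold change of -0.84, beside -0.05 over all genes. The 8 lower genes were those that fell over time in labelled cells, a comparison that shares the labelled day 7 libraries. Hoxa2 differed by -2.26 ± 0.18 (edgeR adjusted p = 2.56e-07), Hoxa6 by -1.95 ± 0.34, Hoxd4 by -1.95 ± 0.30, Hoxb3 by -1.83 ± 0.15, Hoxd3 by -1.44 ± 0.27, Hoxa3 by -1.24 ± 0.15, Hoxc13 by -0.88 ± 0.31 and Hoxa7 by -0.84 ± 0.18. Of these 8, Hoxc13 overlapped between the groups and lost its call without control day 7 replicate 2 or labelled day 7 replicate 1 or 3 (edgeR adjusted p 0.0709 to 0.118). Hoxa4 was higher by 0.90 ± 0.18 (edgeR adjusted p = 0.000683), Hoxd9 by 0.68 ± 0.16, Hoxb4 by 0.63 ± 0.22 and Hoxd8 by 0.29 ± 0.11. Hoxb4 was called in 2 and Hoxd8 in 1 of the 6 fits that left a library out, with Hoxb4 lost without control replicate 1 or 3 or labelled replicate 2 or 3. Hoxd8 stayed called only without labelled replicate 3.

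At day 0, before induction, the label went with smaller differences than at day 7 for most of the 15, and the calls were mostly upward. Hoxb2, Hoxc13 and Hoxd8 were among those with the larger difference at day 0. Of the 15, 5 were higher and 1 lower in labelled cells, beside 12.8% and 13.0% of all genes (25.8% in either direction). Without labelled day 0 replicate 1 it was 4 and 2 of the 15, and the number called over all genes was 6532, against 3449 with it. Without control day 0 replicate 3 it was 2 and 1 of the 15, and 2163 over all genes. Hoxc13 was higher by 1.87 ± 0.27 (edgeR adjusted p = 0.000323) and Hoxb3 by 0.55 ± 0.14 (edgeR adjusted p = 0.0114), both in every fit that left a library out. Hoxd3 was higher by 0.89 ± 0.26 with overlapping libraries, Hoxa2 by 0.63 ± 0.16 and Hoxa7 by 0.52 ± 0.17. Hoxa2 lost its call without control replicate 3 (edgeR adjusted p = 0.0544) and Hoxa7 kept it only without labelled replicate 2. Hoxd3 was called without labelled replicate 1 (1.09) and without control replicate 1 (1.25), and lost its call without replicate 2 or 3 of either group (edgeR adjusted p 0.0759 to 0.106). Hoxd8 was the lower one (-0.46 ± 0.12, edgeR adjusted p = 0.0113). Without labelled day 0 replicate 1, Hoxd9 was also called lower (-0.38, edgeR adjusted p = 0.0428).

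The test of whether the day effect differs between labelled and control cells called 9 of the 15 lower and 2 higher, beside 28.1% and 23.9% of all genes (51.9% in either direction). The difference was -2.89 ± 0.24 for Hoxa2, -2.75 ± 0.41 for Hoxc13, -2.38 ± 0.21 for Hoxb3, -2.33 ± 0.38 for Hoxd3 and -2.20 ± 0.41 for Hoxd4 on the log2 scale, all called in each of the 12 fits that left a library out. Hoxd9 (0.92 ± 0.23) and Hoxd8 (0.74 ± 0.16) were the 2 on the higher side. Hoxa4, Hoxb2 and Hoxb4 were among those not called. For Hoxa4 the estimate was 0.48 ± 0.26 (edgeR adjusted p = 0.132). Without labelled day 0 replicate 1, Hoxa4 (0.62, edgeR adjusted p = 0.0463) and Hoxb4 (0.79, edgeR adjusted p = 0.00307) were called.

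**Figure D4:**
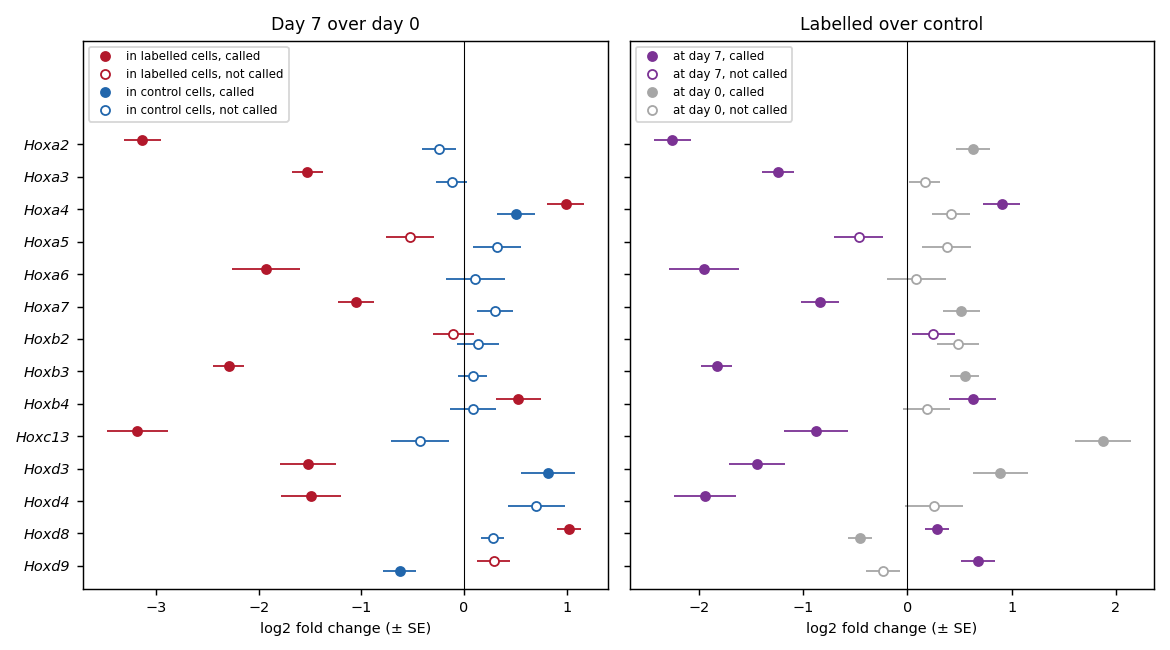
Log2 fold change with SE (horizontal axes) of Hox genes measured in at least 3 groups, for day 7 over day 0 in labelled and in control cells (left) and for labelled over control cells at day 7 and at day 0 (right). Filled points passed edgeR's test at an adjusted p of 0.05 and open points did not. 8 genes lie to the left with filled points both over time in labelled cells and for labelled over control at day 7. Hoxc13 and Hoxd8 lie further from 0 at day 0 than at day 7 in the right panel.

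Set beside the peak lists, the 4 of the 15 genes without a promoter peak in labelled cells at day 7 (Hoxa6, Hoxb3, Hoxc13 and Hoxd4) all fell over time in labelled cells, with a median of -2.11. The 11 with a peak held 4 that fell (Hoxa2, Hoxa3, Hoxa7 and Hoxd3), the 3 that rose and 4 not called, with a median of -0.10. With a window of 5 kb, Hoxa6 and Hoxb3 also had a peak in this list, while Hoxc13 and Hoxd4 had none. Over all genes tested 37.2% fell over time in labelled cells, a share that was not split by peak. This is a description of 15 genes, many of them neighbours, that depends on the window and was not tested. By summed level per kb, HoxA had 20.0, 21.0 and 20.0 CPM per kb in labelled cells at day 7, against 62.1, 44.4 and 42.6 at day 0, and control cells had 39.6, 37.7 and 32.5 at day 7, against 38.0, 34.5 and 36.6 at day 0. HoxD, led by Hoxd8, had 34.1, 31.1 and 31.0 CPM per kb in labelled cells at day 7, against 25.3, 24.7 and 26.6 at day 0, and control cells had 30.8, 32.5 and 33.2 at day 7, against 30.9, 26.4 and 26.1 at day 0. The sums thus hide the falls of Hoxd3 and Hoxd4.

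The cofactors of Hox proteins are set beside the share of all genes called, 69.8% in labelled cells and 48.3% in control cells over time. Of 9 TALE homeodomain cofactors (Pbx, Meis and Pknox), 7 were lower and 1 higher at day 7 in labelled cells, and 5 were lower in control cells. Meis1 had 14.1 ± 0.649 CPM in labelled cells at day 7 and 69.1 ± 9.78 CPM at day 0, and in control cells 45.1 ± 2.38 and 79.7 ± 1.406 CPM (SD, n = 3 each). It fell by 2.30 in labelled and by 0.82 in control cells on the log2 scale, and Pknox2 fell by 3.12 and by 1.53. Pbx2 was the 1 that rose, by 0.67 in labelled cells (edgeR adjusted p = 0.000219). At day 7, 5 cofactors were lower and 1 higher in labelled than in control cells, beside 63.6% of all genes called in either direction. At day 0 none was called, beside 25.8% of all genes.

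The silencing and activating complexes had calls in both directions, and their counts read against the same 69.8% and 48.3%. Of 10 measured genes of Polycomb complex 2, 3 rose and 2 fell at day 7 in labelled cells, and 6 rose and 2 fell in control cells. Jarid2, an accessory subunit that recruits the complex, rose by 2.42 on the log2 scale in labelled and 1.25 in control cells, and Ezh1, one of its methyltransferases, by 1.08 and 0.67. Phf1 fell by 1.26 and by 1.12. Of 17 genes of Polycomb complex 1, 4 rose and 4 fell in labelled cells and 6 fell in control cells. Cbx6, a reader of the Polycomb mark, fell by 2.12 in labelled and by 1.04 in control cells. Of 13 genes of the MLL and trithorax group, 4 fell in labelled cells, Ash2l and Psip1 among them, while in control cells 3 fell and 1 rose. Between labelled and control cells at day 7, 2 genes of Polycomb complex 2 were higher and 2 lower, as were 5 and 4 of complex 1 and 3 and 4 of the MLL group, beside 63.6% of all genes called. At day 0 the numbers higher and lower were 0 and 2, 2 and 2, and 1 and 0, beside 25.8% of all genes called. Kdm6b, 1 of the 2 demethylases of the Polycomb mark, was higher in labelled cells at day 7 than at day 0 (0.82 ± 0.15, edgeR adjusted p = 0.000290) and than in control cells (1.10 ± 0.15). On the higher side the interaction called 1 cofactor, 2 genes of complex 2, 3 of complex 1, 0 of the MLL group and Kdm6b. The numbers on the lower side were 4, 1, 3, 3 and 0, beside 51.9% of all genes called in either direction.

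Markers of cell state differed among the groups, in control cells over time as well. The summed level of 8 adipocyte markers was 25920 to 31740 CPM in labelled cells at day 7 and 461.4 to 579.5 CPM at day 0, and in control cells 9372 to 11110 and 605 to 782.3 CPM. That of 9 preadipocyte or fibroblast markers was 1619 to 1736 and 20590 to 27340 CPM in labelled cells, and 12720 to 13610 and 44830 to 48230 CPM in control cells. Of 7 adipocyte markers tested, 5 were higher and 1 lower in labelled than in control cells at day 7, and 2 were lower at day 0. All 9 fibroblast markers were lower in labelled than in control cells at day 7, and 8 of the 9 were at day 0. Of all genes 63.6% and 25.8% were called at day 7 and at day 0. The part of both lists in the Hox results was not tested. Markers of other cell types also differed among the groups. The muscle list summed to 31.4 to 42.7 CPM in labelled cells at day 7 and 6.57 to 17.3 CPM at day 0, and in control cells to 12.3 to 14.9 and 3.81 to 4.92 CPM. Desmin (Des) was the 1 muscle marker tested and rose over time in both kinds of cell, while Myod1 and Myog had 0 counts. The bone or cartilage list had 23.8 to 27.48 and 147.8 to 177.7 CPM in labelled cells, and 97.6 to 128.7 and 182.2 to 206.5 CPM in control cells. Sox9 was the 1 tested there and fell by 2.70 on the log2 scale in labelled and by 0.71 in control cells, while Acan had 0 counts. The macrophage list had 6.61 to 7.04 and 16.1 to 31.0 CPM in labelled cells, and 13.5 to 15.9 and 13.9 to 18.5 CPM in control cells. Cd14 fell by 1.64 over time in labelled cells and Adgre1 had 0 counts. Endothelial markers stayed between 0.832 and 3.85 CPM in the 12 libraries. The part of these lists in the Hox results was not tested.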

How the data were processed

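Gene counts in the 12 RNA-seq files are raw reads per RefSeq transcript as deposited by the authors. The peak lists carry the authors' own score, 50 or more in each. The submitters' processing notes name mm10, for RNA TopHat2 version 2, HOMER, edgeR and DESeq 1.8.3, and for ChIP Bowtie2 and MACS 1.41, as written there. Strandedness of counting, the peak cut-off and the ChIP depth are not given in the sources used here. Opposite-strand genes overlap exons of Hoxa3 (15.3% of its bases), Hoxb2 (20.5%) and Hoxd8 (4.1%) among others, so reads of both could be mixed there.

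Accessions were named from RefSeq and GENCODE tables (29144 and 177 of 30521), and of several transcripts of a gene the one with the most counts was kept. edgeR 4.0.16 in R 4.3.3 was used with filterByExpr, TMM scaling and robust quasi-likelihood tests (two-sided) of contrasts among the 4 groups, fitted together and adjusted over 13356 genes. CPM are on TMM-scaled library sizes. The fit was tested on simulated data first. Start sites came from GRCm38.p6, the same assembly as mm10, and a promoter had a peak where one overlapped 1 kb either side. Alternatives were DESeq2 1.42.0, other scaling, no filter, summed transcripts, a replicate block, smaller fits, leaving out each library, and other peak rules. Results on 1 member and 1 listed gene are not reported here, though counts over members include them. The other Hox members are named, with every library's value where one was called and averaged at least 1 CPM, and at most 2 members of each list per comparison and direction by smallest adjusted p. The members and lists were chosen with earlier results of these data known. Intervals cover counting error only, and floors only that of the empty group. Nothing in the labels says that equal replicate numbers pair libraries. The 6 input samples were not used here.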

Additional observations from a re-analysis of the deposited data

Results flagged for a closer look

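The effect of the label differed between day 7 and day 0 for 11 of the 15 Hox genes measured in at least 3 groups, by the interaction test of edgeR. The same test called 51.9% of all genes, 28.1% lower and 23.9% higher. On the log2 scale, the estimate was -2.89 for Hoxa2, -1.41 for Hoxa3, -0.85 for Hoxa5, -2.04 for Hoxa6 and -1.36 for Hoxa7. It was -2.38 for Hoxb3, -2.75 for Hoxc13, -2.33 for Hoxd3 and -2.20 for Hoxd4. On the higher side it was 0.74 for Hoxd8 and 0.92 for Hoxd9. Hoxb5 (-7.46), Hoxb9 (-7.52) and Hoxc9 (-3.62) also passed the test, but they passed the count filter only through labelled day 0, so their calls are no support, and the fitted values rest on few or 0 counts. The call for Hoxa5 (edgeR adjusted p = 0.0495) held in 3 of the 12 fits that left a library out, those without control day 0 replicate 1, labelled day 0 replicate 3 or labelled day 7 replicate 2. That for Hoxc9 held in 5 of 12.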

How the results depend on the processing

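No Hox gene called in the fit reported changed sign under any alternative, while estimates of genes not called did, such as Hoxb4 for the label at day 0 (-0.16 to 0.37 when a library was left out). Counts below are over the 15 genes measured in at least 3 groups, since the other 5 tested passed the filter through 1 group. As reported, those higher and lower were 3 and 8 over time in labelled cells and 2 and 1 in control cells. For the label they were 4 and 8 at day 7 and 5 and 1 at day 0, and for the interaction 2 and 9. Of all genes 69.8%, 48.3%, 63.6%, 25.8% and 51.9% were called in the same order. Fitting only the 2 groups compared called 5 genes higher over time in control cells, against 2, as all genes called went from 6447 to 8686. For the label at day 0 it called 3 higher and 0 lower, against 5 and 1, and 1782 of all genes, against 3449. DESeq2 called 4 higher over time in control cells, and 6808 of all genes in either direction. Leaving out each library in turn, the counts of higher and lower genes were 2 to 4 and 8 to 9 over time in labelled cells. Over time in control cells they were 0 to 2 and 1. For the label they were 2 to 4 and 7 to 8 at day 7 and 2 to 4 and 1 to 2 at day 0. For the interaction they were 2 to 4 and 8 to 9. The replicate block called 2 higher and 8 lower over time in labelled cells and 3 and 1 in control cells. For the label it called 3 and 8 at day 7 and 4 and 1 at day 0, and for the interaction 2 and 9. Of all genes it called 9051, 6031, 8161, 2964 and 6541 in the same order. Libraries of equal number showed low correlation of their deviations, -0.249 to 0.114 over 18 pairs, with 1 pair over 0.1. With 3 libraries per group this cannot exclude pairing. For peaks, a window of 5 kb gave 14 Hox genes in labelled cells at day 7, against 11, and 11 at day 0, against 8. It gave 8 in control cells at day 7, against 5, and 1 for Nrf1 at day 0, against 0. Over all genes these 4 shares were 51.1%, 44.6%, 36.6% and 7.87%, against 47.4%, 41.8%, 34.5% and 6.88%. Where the peak centre had to lie within 1 kb, labelled cells had 9 Hox genes at day 7 and 6 at day 0. Over all genes 45.9% and 37.5% met that rule. In control cells it left the Hox counts at 5 and 3. The cause of these differences was not tested. Genes under about 1 CPM rest on few counts, and the peak lists give no depth, so a missing peak shows only that none was called.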

Other observations

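Genes around and akin to the Hox clusters did not share 1 direction. Of 12 measured protein-coding neighbours of the clusters, 8 rose and 2 fell in labelled cells over time, and 6 rose and 2 fell in control cells, beside 69.8% and 48.3% of all genes called in either direction. Hibadh, a valine-breakdown enzyme beside HoxA, had 508.9 ± 25.7 CPM in labelled cells at day 7 and 61.0 ± 3.98 CPM at day 0, and in control cells 181.0 ± 2.88 and 56.1 ± 6.44 CPM (SD, n = 3 each). It rose by 3.06 on the log2 scale in labelled cells, and Mtx2, a mitochondrial import gene beside HoxD, rose by 1.91. Hnrnpa3, an RNA-binding protein gene, fell by 1.11 in labelled cells. Between labelled and control cells, 7 neighbours were higher and 2 lower at day 7, 1 was higher at day 0, and the interaction called 6 higher and 1 lower, beside 63.6%, 25.8% and 51.9% of all genes. Of 10 non-coding genes of the clusters in the files, 2 could be tested, and Hoxd3os1 was higher at day 7 in control cells (0.947 ± 0.225 against 0.264 ± 0.1498 CPM, edgeR adjusted p = 0.0292). No other comparison called either of the 2. Of 11 other homeobox genes of the Antennapedia class, 2 could be tested. Meox2, a mesoderm gene, was lower at day 7 in control cells (0.115 ± 0.0996 against 1.93 ± 0.173 CPM, SD, n = 3 each, edgeR adjusted p = 0.0250). In labelled cells its SD at day 0 exceeded its mean (2.05 ± 3.02 CPM), so no change is given there. Cdx1, a regulator of Hox genes in the embryo, was higher in labelled cells at day 0 (0.637 ± 0.0606 against 0.238 ± 0.0383 CPM, edgeR adjusted p = 0.0253).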
